A study of Mus musculus with 9 samples.

Results

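Expression of 36 germline genes, out of the 55471 gene IDs in the count table, was followed in embryoid bodies (EBs) of the mouse, in which aggregated embryonic stem cells (ESCs) begin to differentiate. The genes encode germ cell regulators, proteins of the piRNA pathway, and components of meiotic chromosomes. They were chosen by name, with their values in all groups of libraries already known, so their levels, differences and counts past a threshold are given as a description, without their p-values, and nothing is read from the counts. All 36 symbols were found among the Ensembl IDs.

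The EBs fell into 3 groups, with 3 libraries each. WT EBs came from the parental E14 ESC line. *Tnfaip2*-/- EBs (KO) came from 1 ESC clone made with CRISPR-Cas9 that carries a premature stop codon, so the KO and WT groups compare this clone with its parental line. The third group (KO_PAPC) was the same *Tnfaip2*-/- genotype given 2 lipids, PA (palmitic acid) and PC (palmitoyl-L-carnitine), at 8 µM each. The study describes EB formation over 3 days in hanging drops in ESC medium, which holds leukemia inhibitory factor. For PA/PC it describes 3 days of EB formation in fibroblast medium that already held both lipids. EBs of every group were then plated on gelatin and harvested after 3 days of in vitro differentiation in fibroblast medium, for KO_PAPC again with the lipids. As described, formation medium and lipids both differ between KO_PAPC and KO and cannot be told apart. WT EBs with PA/PC were not analysed here.

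In animals, these genes act in germ cells. PIWI proteins carry piRNAs, small RNAs that guide the silencing of transposons, and they assemble with Tudor domain proteins and RNA helicases in perinuclear granules called nuage. During meiosis, cohesin and axis proteins organise each chromosome, the synaptonemal complex joins homologous chromosomes, and recombination enzymes make and repair DNA breaks. In ESCs and somatic cells many such genes are held low by DNA methylation, by histone H3 lysine 9 methylation and by a noncanonical Polycomb complex built on PCGF6, which binds DNA through E2F6 and through MGA with MAX. Several of the genes are nevertheless transcribed in ESCs, and *Tex19.1* and *Dazl* are known examples.

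Total counts lay between 27362913 and 28914312 per library, and every pair of replicates differed by more than sampling noise. *Tnfaip2* itself was close to the detection floor, with 6 to 16 counts in WT, 5 to 8 in KO and 14 to 25 in KO_PAPC libraries, so it gave no check of the labels. The pluripotency genes *Pou5f1*, *Sox2*, *Nanog* and *Zfp42* were abundant in all 9 libraries. Most genes of the series differed between groups. Of the genes tested, 73.8% were called between KO and WT, 81.8% between KO_PAPC and KO and 70.6% between KO_PAPC and WT, where called means an adjusted p under 0.05 in edgeR's quasi-likelihood test. Because so many genes were called, the size of a difference is given first throughout. The same 3 KO libraries served in 2 of the contrasts, KO versus WT and KO_PAPC versus KO, whose values are therefore not independent.

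Most of the 36 genes had their lowest level in KO_PAPC EBs. In 29 of them, all among the 33 that could be tested, each KO_PAPC library lay below each WT and each KO library, where 39.0% of 16174 genes tested in every contrast showed this order. With TMM factors, a scaling that centres the bulk of genes, these were 28 of the 36 genes and 28.0% of all. The summed level of all 36 genes was between 750.6 and 768.3 CPM (counts scaled to the library total) in WT, between 938.5 and 950.7 in KO and between 270.0 and 281.7 in KO_PAPC. KO lay above both other groups in 18 of the 36 genes, 16 of them tested, and in 31.0% of all genes tested. It lay below both in 2, *Ddx4* and *Tdrd1*, and in 25.3% of all genes tested. In bulk RNA, fewer cells of a type and less RNA per cell cannot be told apart. The plot of CPM by library shows every value.

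**Figure D1:**
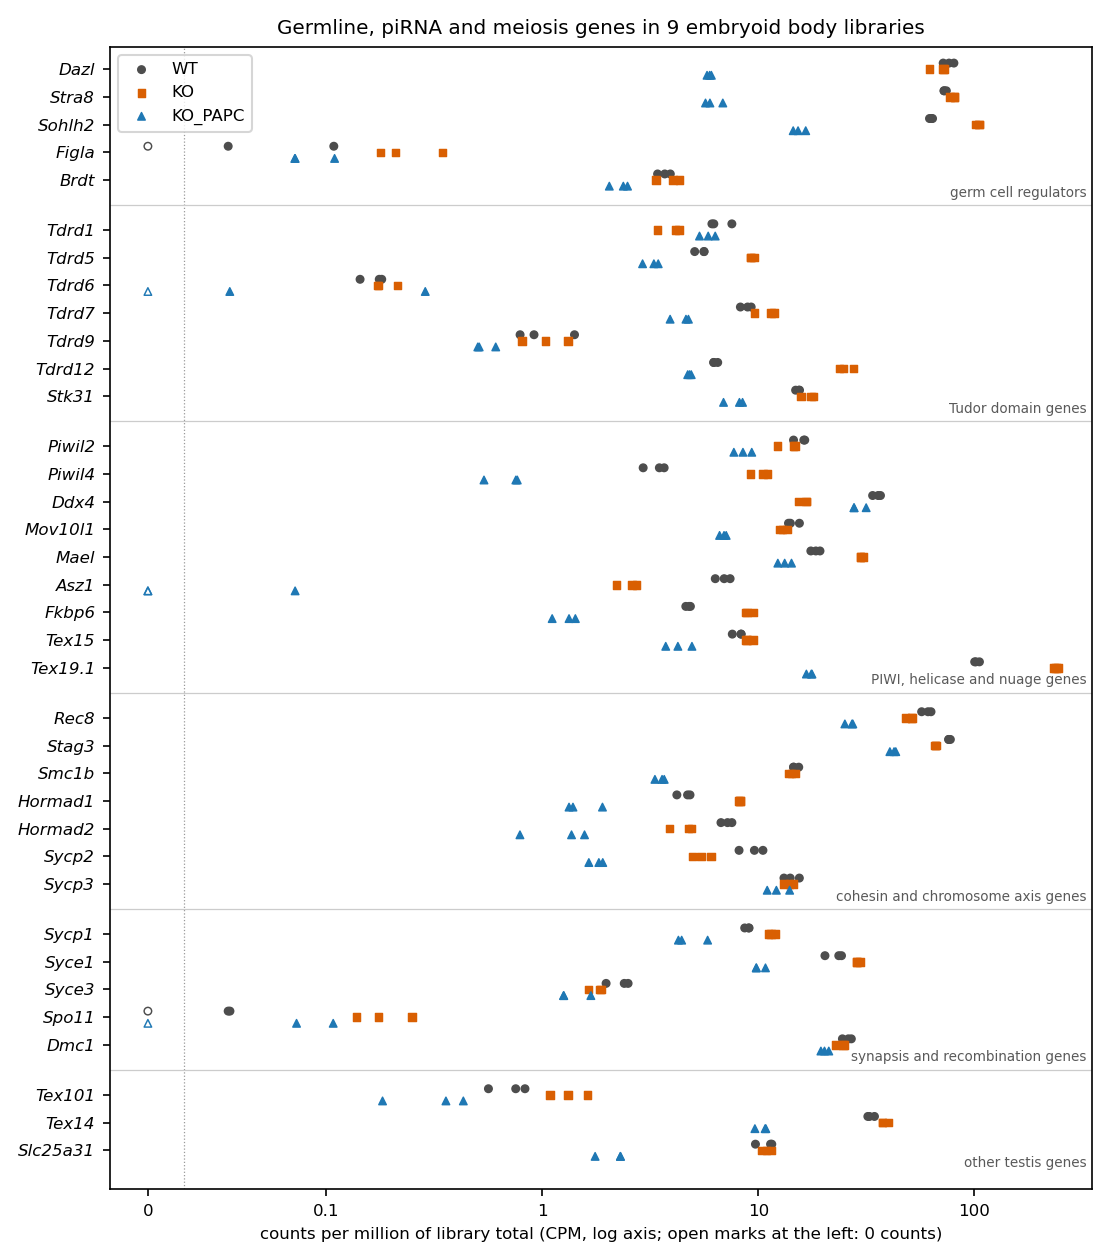
CPM of the 36 genes (rows, grouped by role) in each of the 9 libraries on a log axis, with WT as circles, KO as squares and KO_PAPC as triangles; open marks at the left edge are libraries with 0 counts. In 29 of 36 rows the 3 KO_PAPC triangles lie to the left of every WT and KO mark, an order found in 39.0% of all genes tested.

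Of the 36 genes, 3 had a mean under 1 CPM in every group and were too low to be tested in any contrast. *Figla*, a transcription factor of oocytes, had 0 to 3 counts in WT, 5 to 10 in KO and 2 to 3 in KO_PAPC. *Spo11*, the enzyme that makes meiotic DNA breaks, had 0 to 1 counts in WT, 4 to 7 in KO and 0 to 3 in KO_PAPC. *Tdrd6*, a Tudor protein of late male germ cells, had 4 to 5 counts in WT, 5 to 6 in KO and 0 to 8 in KO_PAPC. A gene was taken to be at the detection floor in a group when no library of that group held more than 3 counts. By this definition *Figla* and *Spo11* were at the floor in WT and in KO_PAPC, *Asz1* was at the floor in KO_PAPC, and no gene was at the floor in KO. *Tdrd6* in KO_PAPC lay just outside, with 8, 0 and 1 counts. The remaining 33 genes were tested in each of the 3 contrasts.

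Levels scaled by gene length (TPM) spanned a wide range. In WT EBs *Tex19.1* was highest at 193.0 ± 4.77 TPM (SD, n = 3), followed by *Stra8* at 142.7 ± 1.76 and *Sohlh2* at 94.0 ± 1.29. *Rec8* (72.5 ± 3.46 TPM) and *Dazl* (70.3 ± 4.17) came next and overlapped each other. In KO EBs *Tex19.1* reached 450.7 ± 7.72 TPM, while *Stra8* (156.8 ± 3.78) and *Sohlh2* (155.8 ± 3.41) overlapped in second place. The order was different in KO_PAPC EBs, where *Sycp3* (34.3 ± 4.33 TPM), *Ddx4* (33.7 ± 2.73), *Tex19.1* (32.4 ± 0.888) and *Rec8* (31.7 ± 1.34) were highest and did not separate from their neighbours. *Dazl* ranked 5 of the 36 genes in WT and 16 in KO_PAPC, at 5.44 ± 0.0966 TPM.

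The promoter sequences of 6 of these genes are shown because the genes differ in how low they were in KO_PAPC and in the words that their promoters contain. They are the RefSeq bases upstream of the transcription start in GRCm38.p6, without any base of a GENCODE exon. Capitals mark TCCCGC or its reverse complement GCGGGA, the word bound by E2F6, and CACGTG, the E-box bound by MAX and MGA. *Asz1* (chr6:18109062-18109311, minus strand) and *Dazl* (chr17:50293637-50293870, minus strand) were far lower in KO_PAPC than in KO and have neither word.
Asz1: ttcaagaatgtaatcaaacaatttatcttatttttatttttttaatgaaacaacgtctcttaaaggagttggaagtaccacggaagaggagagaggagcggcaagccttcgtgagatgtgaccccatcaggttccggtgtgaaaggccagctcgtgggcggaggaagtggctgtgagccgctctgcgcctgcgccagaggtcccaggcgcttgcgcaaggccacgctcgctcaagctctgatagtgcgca
Dazl: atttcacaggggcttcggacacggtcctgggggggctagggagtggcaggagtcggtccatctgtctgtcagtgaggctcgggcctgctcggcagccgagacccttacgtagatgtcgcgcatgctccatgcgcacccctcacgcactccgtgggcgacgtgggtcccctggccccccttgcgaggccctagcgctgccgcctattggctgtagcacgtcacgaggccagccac
*Tex19.1* (chr11:121145893-121146142, plus strand) has the E2F6 word once, *Fkbp6* (chr5:135350045-135350294, minus strand) has the E-box in 2 places, and *Hormad1* (chr3:95559427-95559676, plus strand) has the E2F6 word once and the E-box in 2 places.
Tex19.1: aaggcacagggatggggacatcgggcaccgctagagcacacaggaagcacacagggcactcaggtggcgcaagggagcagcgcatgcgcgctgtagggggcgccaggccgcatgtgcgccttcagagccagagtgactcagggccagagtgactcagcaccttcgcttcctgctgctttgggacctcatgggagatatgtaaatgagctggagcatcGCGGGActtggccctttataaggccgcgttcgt
Fkbp6: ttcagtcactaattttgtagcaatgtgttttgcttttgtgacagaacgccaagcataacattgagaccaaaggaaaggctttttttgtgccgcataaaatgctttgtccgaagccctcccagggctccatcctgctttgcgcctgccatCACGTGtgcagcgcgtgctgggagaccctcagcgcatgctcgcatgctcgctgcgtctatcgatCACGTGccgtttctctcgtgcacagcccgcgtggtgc
Hormad1: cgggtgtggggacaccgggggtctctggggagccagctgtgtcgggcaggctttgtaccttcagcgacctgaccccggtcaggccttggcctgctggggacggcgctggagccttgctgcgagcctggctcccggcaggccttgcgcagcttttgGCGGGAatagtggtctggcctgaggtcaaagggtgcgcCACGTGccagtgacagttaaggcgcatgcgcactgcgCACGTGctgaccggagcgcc
*Tdrd1* (chr19:56825959-56826208, plus strand) has 1 E-box and was the gene, besides *Ddx4*, that was higher in KO_PAPC than in KO.
Tdrd1: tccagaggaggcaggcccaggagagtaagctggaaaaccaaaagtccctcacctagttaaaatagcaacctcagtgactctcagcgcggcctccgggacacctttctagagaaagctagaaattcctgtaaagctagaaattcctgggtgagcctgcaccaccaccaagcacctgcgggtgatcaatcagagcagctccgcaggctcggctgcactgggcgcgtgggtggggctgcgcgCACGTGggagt

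The regulators of germ cell development held some of the largest differences. *Dazl* (ENSMUSG00000010592, chromosome 17, 50279395 to 50293636), an RNA-binding protein that promotes translation in germ cells, had 2278, 1995 and 2107 counts in WT libraries, 1774, 2005 and 2095 in KO libraries and 161, 166 and 166 in KO_PAPC libraries. The WT and KO libraries overlapped, whereas the KO_PAPC libraries lay far below both. The mean level was 76.1 ± 4.33 CPM for WT, 68.7 ± 5.73 for KO and 5.94 ± 0.136 for KO_PAPC, and the log2 fold change was -3.37 ± 0.0663 (SE) between KO_PAPC and KO and -0.15 ± 0.0434 between KO and WT.

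*Stra8* (ENSMUSG00000029848, chromosome 6, 34920163 to 34939344), which retinoic acid induces at the entry into meiosis, behaved alike. It had 2049, 2063 and 2002 counts in WT, 2316, 2269 and 2235 in KO and 166, 156 and 191 in KO_PAPC. The 3 groups did not overlap, and KO exceeded WT by a log2 fold change of only 0.13 ± 0.0329. From KO to KO_PAPC the mean went from 79.8 ± 2.16 to 6.18 ± 0.603 CPM, with a log2 fold change of -3.52 ± 0.0574. *Sohlh2*, a transcription factor of spermatogonia and oocytes, was more clearly separated between KO and WT. Its level was 63.0 ± 1.02 CPM for WT, 103.9 ± 2.28 for KO and 15.4 ± 1.05 for KO_PAPC. Its log2 fold change was 0.72 ± 0.0321 between KO and WT and -2.58 ± 0.0455 between KO_PAPC and KO. *Brdt*, a bromodomain protein of the male germ line, differed least in this group, with 3.68 ± 0.248 CPM for WT, 3.91 ± 0.494 for KO and 2.30 ± 0.228 for KO_PAPC. Together the 5 regulators summed to between 213.8 and 218.1 CPM for WT, 252.0 and 259.6 for KO, and 28.8 and 31.5 for KO_PAPC.

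Among the Tudor domain genes, whose products bind methylated arginines of PIWI proteins, *Tdrd12* and *Tdrd1* differed in direction. *Tdrd12* (ENSMUSG00000030491, chromosome 7, 35469098 to 35537745), a factor of piRNA production, had 184, 173 and 172 counts in WT, 678, 694 and 799 in KO and 131, 134 and 134 in KO_PAPC. The KO libraries stood apart, at 25.4 ± 2.02 CPM against 6.31 ± 0.155 in WT and 4.81 ± 0.0908 in KO_PAPC. The log2 fold change was 2.01 ± 0.0711 between KO and WT, the highest of the 33 genes tested, and -2.23 ± 0.0775 between KO_PAPC and KO. *Tdrd1*, a nuage scaffold, had 173, 210 and 172 counts in WT, 118, 96 and 124 in KO and 163, 173 and 149 in KO_PAPC. Here the KO libraries were the lowest, and WT and KO_PAPC overlapped, with a log2 fold change between them of -0.02 ± 0.102. *Tdrd1* was lower in KO than in WT by a log2 fold change of -0.74 ± 0.109 and higher in KO_PAPC than in KO by 0.73 ± 0.11.

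The other Tudor genes were lowest in KO_PAPC. *Tdrd5*, required for retrotransposon silencing in the male germ line, had a mean of 5.43 ± 0.306 CPM in WT, against 9.34 ± 0.206 in KO and 3.22 ± 0.272 in KO_PAPC. *Tdrd7*, a component of the chromatoid body of male germ cells, had 8.82 ± 0.51, 10.97 ± 1.18 and 4.43 ± 0.455 CPM in the same order. *Stk31*, a Tudor protein with a kinase-like domain, had 15.3 ± 0.343, 17.1 ± 1.2 and 7.85 ± 0.828 CPM. *Tdrd9*, a helicase with a Tudor domain, was near 1 CPM in WT and KO, with 22 to 39 counts per library, and held 14 to 17 counts in KO_PAPC. Its WT and KO libraries overlapped.

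*Asz1* (ENSMUSG00000010796, chromosome 6, 18050964 to 18109061), which ties nuage to mitochondria, showed the largest difference of all 36 genes. It had 210, 176 and 192 counts in WT, 63, 73 and 79 in KO, and 2, 0 and 0 in KO_PAPC. The level therefore went down from WT to KO and again from KO to KO_PAPC, where the gene was at the detection floor. From the summed counts and library totals, KO exceeded KO_PAPC 104.4-fold, with an exact 95% interval of 28.5 to 867.3 that covers counting error only, and WT exceeded KO_PAPC 286.3-fold (78.9 to 2370). Between KO and WT the log2 fold change was -1.45 ± 0.113, the lowest of the 33 genes tested.

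*Ddx4* (ENSMUSG00000021758, chromosome 13, 112598333 to 112652475), the RNA helicase that is a standard marker of germ cells, went the other way between KO and KO_PAPC. It had 1016, 941 and 1015 counts in WT, 439, 468 and 480 in KO and 877, 759 and 773 in KO_PAPC. The KO libraries were the lowest of the 9, and the 3 groups did not overlap. The log2 fold change was -1.13 ± 0.0522 between KO and WT, 1.005 ± 0.0587 between KO_PAPC and KO, and -0.13 ± 0.0534 between KO_PAPC and WT. *Ddx4* alone of the 33 genes tested was higher in KO_PAPC than in KO by 2-fold or more, and it lay at the edge of that limit, since it stayed past it in 10 of 13 alternative fits.

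*Tex19.1* (ENSMUSG00000039329, chromosome 11, 121146143 to 121148319), a factor of retrotransposon control that is also known from pluripotent cells, had 2843, 2826 and 2912 counts in WT, 6944, 6668 and 6743 in KO and 464, 485 and 490 in KO_PAPC. The 3 groups were far apart, at 102.4 ± 2.69, 238.1 ± 4.95 and 17.3 ± 0.554 CPM. The log2 fold change was 1.22 ± 0.0278 between KO and WT and -3.61 ± 0.0386 between KO_PAPC and KO.

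*Piwil4* (ENSMUSG00000036912, chromosome 9, 14696230 to 14740733), the nuclear PIWI protein that directs DNA methylation of transposons in fetal male germ cells, followed the same order. It had 104, 97 and 81 counts in WT, 316, 295 and 266 in KO and 21, 21 and 15 in KO_PAPC. Its log2 fold change was 1.61 ± 0.101 between KO and WT and -3.73 ± 0.148 between KO_PAPC and KO. The cytoplasmic PIWI protein gene *Piwil2* was different, with 15.7 ± 1.02 CPM for WT, 13.9 ± 1.41 for KO and 8.51 ± 0.81 for KO_PAPC, and its WT and KO libraries overlapped.

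The remaining genes of this role lay lowest in KO_PAPC as well. *Fkbp6*, a co-chaperone of piRNA loading, had 4.75 ± 0.118 CPM for WT, 9.02 ± 0.412 for KO and 1.29 ± 0.161 for KO_PAPC. *Mael*, a nuage protein of transposon silencing, had 18.4 ± 0.897, 30.1 ± 0.508 and 13.3 ± 0.966 CPM in the same order. Both were highest in KO. *Mov10l1*, the helicase that feeds piRNA precursors into processing, had 14.5 ± 0.911, 13.03 ± 0.48 and 6.89 ± 0.246 CPM, and *Tex15*, needed for silencing of transposons and for meiotic repair, had 8.08 ± 0.429, 9.03 ± 0.369 and 4.30 ± 0.603. Over the 9 genes of the PIWI, helicase and nuage role the summed level was 205.2 to 213.8 CPM for WT, 336.3 to 346.5 for KO and 79.6 to 83.0 for KO_PAPC, and *Tex19.1* alone supplied most of the KO sum.

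The meiotic cohesin and axis genes had a median log2 fold change of -0.21 in KO versus WT. Of the 7 genes, 1 was called higher and 4 lower, where 36.8% of all genes tested were called higher and 37.1% lower. *Rec8*, the meiotic kleisin, had 60.3 ± 3.04 CPM for WT, 50.2 ± 1.94 for KO and 26.6 ± 1.22 for KO_PAPC. *Stag3*, its cohesin partner, had 76.5 ± 0.774, 66.0 ± 0.406 and 42.1 ± 1.35 CPM. In both genes the 3 groups were apart, in the order WT, KO, KO_PAPC. *Sycp2*, an axis protein of the synaptonemal complex, had 298, 267 and 225 counts in WT, 142, 169 and 157 in KO and 53, 45 and 51 in KO_PAPC, and *Hormad2*, which monitors synapsis, had 214, 187 and 199, 136, 109 and 142, and 38, 43 and 22. Both therefore also went down in 2 steps.

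*Smc1b*, the meiotic cohesin ring subunit, overlapped between WT and KO (14.8 ± 0.478 and 14.4 ± 0.491 CPM) and had 3.53 ± 0.181 CPM in KO_PAPC, a log2 fold change of -1.86 ± 0.0878 from KO. *Hormad1*, which promotes break formation and synapsis, was highest in KO, with 4.58 ± 0.335 CPM for WT, 8.19 ± 0.0737 for KO and 1.54 ± 0.314 for KO_PAPC, and 22.3% of its transcript words of 51 bases occur in other genes. *Sycp3*, the main axis component, had 439, 391 and 363 counts in WT, 376, 407 and 404 in KO and 388, 301 and 338 in KO_PAPC. Its groups overlapped in all 3 contrasts. The value for *Sycp3* is uncertain, since 52.2% of its exon bases overlap the antisense gene *Chpt1*, 42.8% of its words occur in other genes, and the libraries carried no strand.

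Of the genes for synapsis and recombination, *Syce1* and *Sycp1* had their highest level in KO and their lowest in KO_PAPC. *Syce1*, a central element protein, had 22.7 ± 2.1 CPM for WT, 28.8 ± 0.589 for KO and 10.1 ± 0.583 for KO_PAPC, and *Sycp1*, the transverse filament protein, had 8.92 ± 0.226, 11.5 ± 0.417 and 4.84 ± 0.861. The other pair differed less than 1.5-fold in every contrast with TMM factors. For *Syce3* in KO_PAPC versus WT the log2 fold change was -0.55 on that scale. It went down to -0.71 in other settings, which is past that limit. *Dmc1*, the meiotic recombinase, had 740, 682 and 744 counts in WT, 652, 690 and 726 in KO and 589, 554 and 543 in KO_PAPC, with log2 fold changes of -0.10 ± 0.052 between KO and WT and -0.09 ± 0.0555 between KO_PAPC and KO. *Syce3*, another central element protein, had 55 to 69 counts in WT, 46 to 54 in KO and 35 to 46 in KO_PAPC.

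The other 3 testis genes were lowest in KO_PAPC. *Tex14*, needed for the bridges that join dividing germ cells, had 33.1 ± 1.23 CPM for WT, 38.5 ± 1.45 for KO and 10.4 ± 0.667 for KO_PAPC. *Slc25a31*, the germ cell ADP/ATP carrier of mitochondria, was level between WT and KO (10.9 ± 1.02 and 10.9 ± 0.513 CPM) and had 2.12 ± 0.314 CPM in KO_PAPC. *Tex101*, a surface glycoprotein of male germ cells, was low throughout, with 16, 21 and 23 counts in WT, 31, 37 and 47 in KO and 12, 5 and 10 in KO_PAPC.

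**Figure D2:**
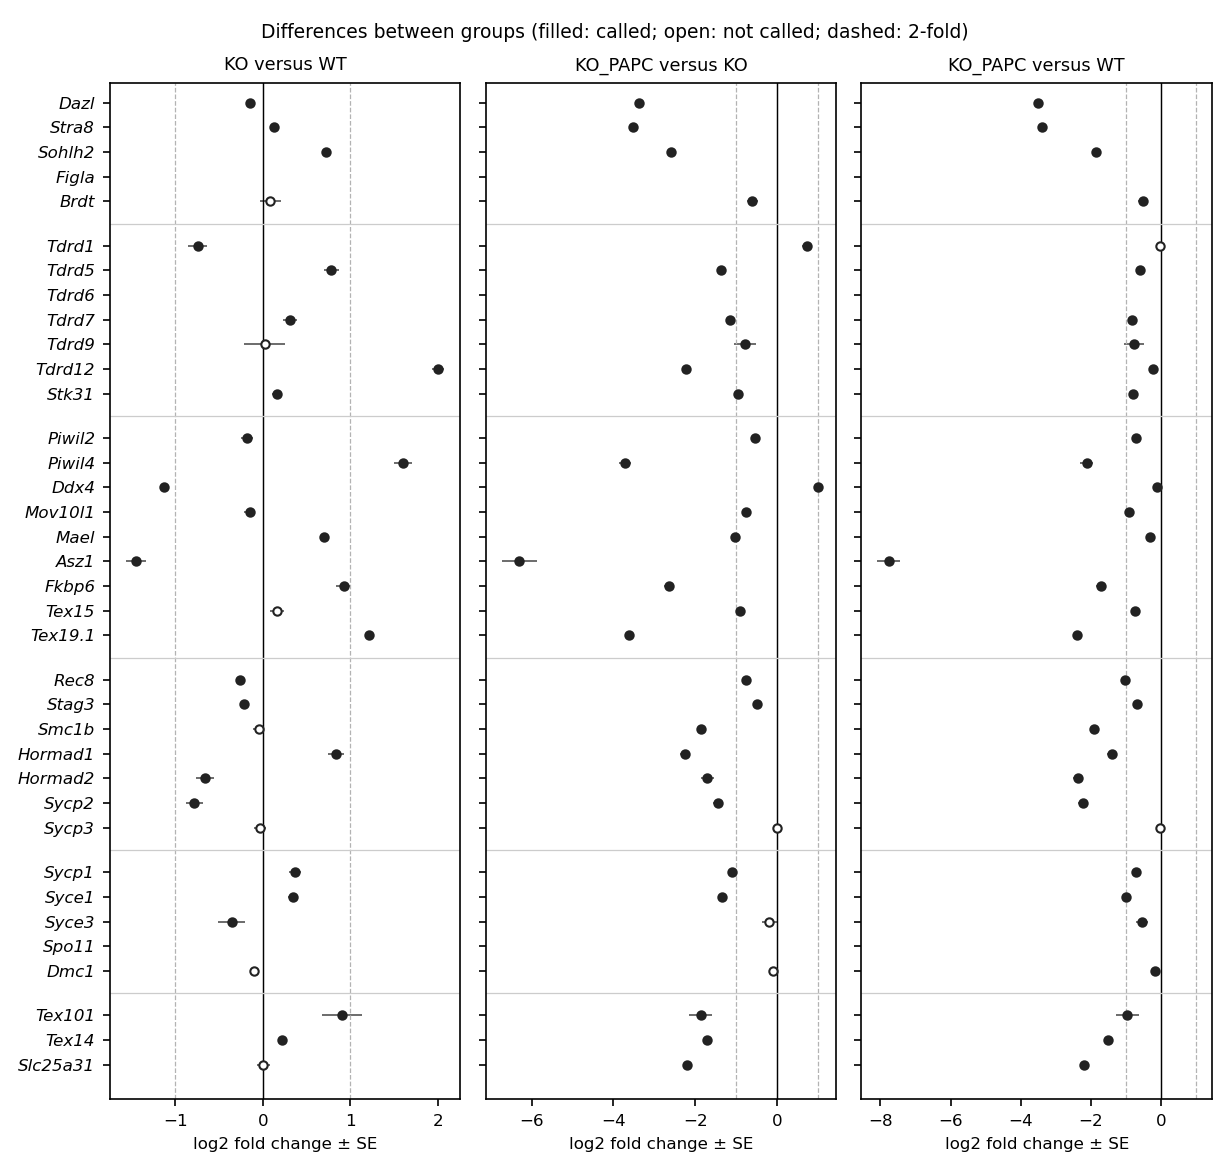
Log2 fold change with its SE for the 33 genes tested in each of 3 contrasts, with filled points for genes called by edgeR and open points for the others; dashed lines mark a 2-fold difference. In KO_PAPC versus KO 20 points lie past the line on the lower side and 1, *Ddx4*, on the higher side. Among all genes tested, 18.4% were called and at least 2-fold lower and 9.4% at least 2-fold higher. The position of *Asz1* depends on the prior count because KO_PAPC was at the detection floor.

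Counted over the 33 genes tested, KO versus WT showed no common direction. Of these genes 15 were called higher, 11 lower and 7 were not called, where 36.8% of all genes tested were called higher and 37.1% lower. The median log2 fold change was 0.09 against -0.01 over all genes tested. Of the 33 genes 5 were at least 2-fold apart, with *Tdrd12*, *Piwil4* and *Tex19.1* higher and *Asz1* and *Ddx4* lower, where 8.86% of all genes tested were at least 2-fold higher and 6.9% at least 2-fold lower. The groups did not overlap in 25 of the 33 genes, against 75.2% of all genes tested.

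In KO_PAPC versus KO the direction was nearly uniform. Of the 33 genes 28 were called lower, 2 higher and 3 were not called, where 42.2% of all genes tested were called lower and 39.6% higher. The median log2 fold change was -1.34 against -0.02 over all genes tested. At least 2-fold lower were 20 genes, and 1 was at least 2-fold higher, where the shares among all genes tested were 18.4% and 9.4%. By role, the median was -2.97 for the regulators, -1.05 for the Tudor genes, -1.01 for the PIWI, helicase and nuage genes, -1.44 for the cohesin and axis genes, -0.64 for the synapsis and recombination genes and -1.87 for the other testis genes. The groups did not overlap in 31 of the 33 genes, against 82.1% of all genes tested. *Mael* lay just inside the 2-fold limit, with a log2 fold change of -1.01 ± 0.058, and *Stk31* just outside it, with -0.96 ± 0.0772.

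In KO_PAPC versus WT 31 of the 33 genes were called lower and 2, *Tdrd1* and *Sycp3*, were not called, where 36.4% of all genes tested were called lower and 34.2% higher. The median log2 fold change was -0.90 against -0.02 over all genes tested. At least 2-fold lower were 15 genes, where 11.4% of all genes tested were that much lower and 2.25% that much higher. *Syce1* and *Rec8* lay at the limit, with log2 fold changes of -1.001 ± 0.0731 and -1.02 ± 0.0476. The groups did not overlap in 31 of the 33 genes, against 73.0% of all genes tested. For these counts the genes had been chosen with the same contrasts in view, so the shares among all genes are printed as background only.

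The scale matters for the KO_PAPC contrasts. With the TMM factors of edgeR the median of all genes was near 0, whereas scaling by library totals moved it to -0.18 in KO_PAPC versus KO and in KO_PAPC versus WT. On that scale calls in KO_PAPC versus KO comprised 5323 higher and 8677 lower genes, in place of 6801 and 7246, those in KO_PAPC versus WT 3631 and 8334, in place of 5693 and 6067, and the median of the 33 genes in KO_PAPC versus KO became -1.51 in place of -1.34. CPM values are on the scale of library totals.

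**Figure D3:**
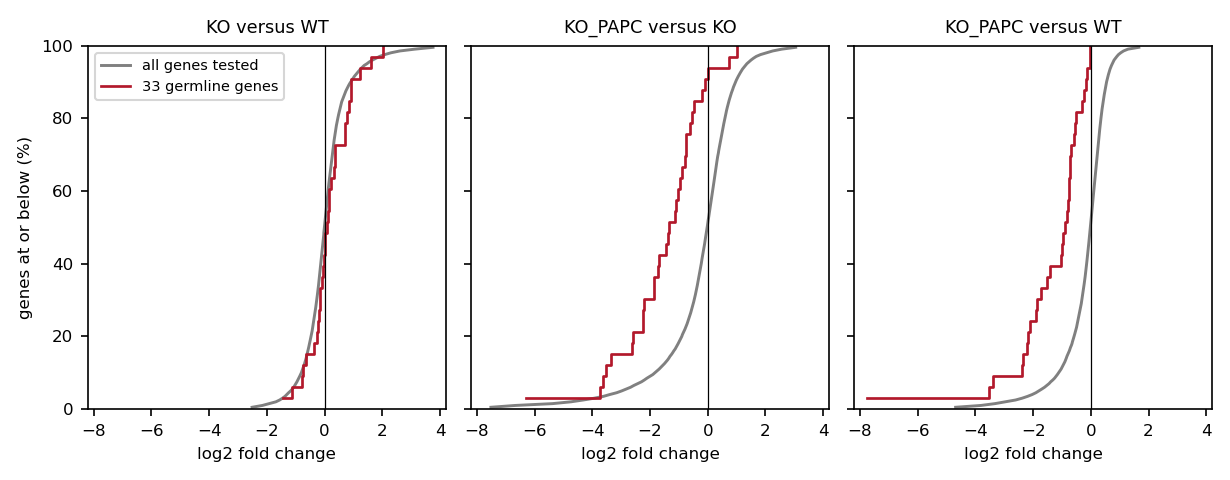
Cumulative share of genes at or below each log2 fold change, for all genes tested (grey) and for the 33 germline genes (red), in 3 contrasts. The red line follows the grey one in KO versus WT, with medians of 0.09 and -0.01, and lies to its left in KO_PAPC versus KO, with medians of -1.34 and -0.02.

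Promoter words were counted in the 32 genes that have a RefSeq promoter window of 300 bases, 250 before and 50 after the start. Windows for *Tdrd6*, *Piwil2*, *Spo11* and *Tex15* were not analysed here. The E2F6 word, TCCCGC on either strand, occurred in 13 of the 32 windows (40.6%), against 20.1% of all 27025 promoters and 34.9% of the 12230 promoters of genes tested here. The E-box, CACGTG, which reads the same on both strands, also occurred in 13 windows (40.6%), against 7.24% of all promoters and 9.91% of those of genes tested. Both words were present in 7 windows (21.9%), against 2.05% and 3.8%. The words do not overlap each other in sequence. A match shows that the letters are there and not that a factor was bound.

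Both words were also counted by the size of the difference. Among the 20 genes whose KO_PAPC level was at least 2-fold under KO, 8 had the E2F6 word and 5 the E-box, and among the 12 other genes with a window the counts were 5 and 8. The ratio of observed to expected CpG dinucleotides, a measure of CpG island character, had a median of 0.693 in the 20 genes and 0.695 in the 12 others. Over the 32 windows it ranged from 0.218 for *Syce3* to 1.11 for *Tdrd5*, with a median of 0.693 against 0.389 in all promoters and 0.736 in promoters of genes tested. *Asz1*, *Dazl*, *Stra8* and *Piwil4*, with 4 of the 5 largest differences between KO_PAPC and KO, contained neither word, whereas *Ddx4* contained each once. These counts are descriptions without a test.

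**Figure D4:**
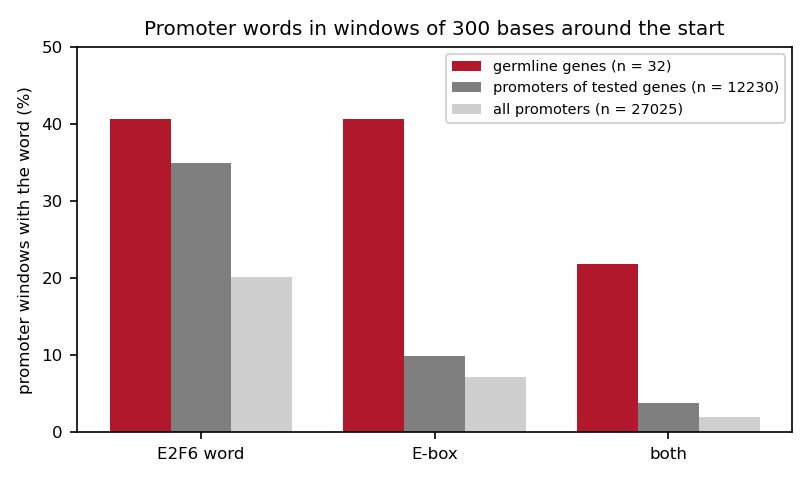
Share of promoter windows (percent) that contain the E2F6 word, the E-box or both, for 32 germline genes (red), 12230 promoters of genes tested (dark grey) and all 27025 promoters (light grey). The E-box was present in 40.6% of the germline windows and in 9.91% of those of genes tested.

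Genes of the same pathways outside the 36 were listed from textbook knowledge and tested with edgeR over all genes. Earlier results of these data were known when the lists were made, and named genes have the largest differences. Their counts and p-values are therefore no independent check of the 36 genes. Of 28 other meiosis genes, 25 were tested in KO_PAPC versus KO, where 19 fell, 4 rose and 2 were not called. Among all genes tested, 42.2% were called lower and 39.6% higher. *Rec114*, a partner of the break-forming complex, fell from 27.8 to 4.07 CPM (log2 fold change -2.60 ± 0.0762, edgeR adjusted p = 3.76e-27). *Terb2*, which attaches telomeres to the nuclear envelope, fell by 2.55 ± 0.115 on the log2 scale (edgeR adjusted p = 2.39e-21), and *Ankrd31*, a regulator of break sites, by 2.41 ± 0.176 (edgeR adjusted p = 5.15e-15). The strongest exception, named after its value was seen, was *Syce2*, a central element protein, which rose from 49.9 ± 1.47 to 186.2 ± 5.05 CPM (log2 fold change 2.06 ± 0.0336, edgeR adjusted p = 3.86e-35). Its KO_PAPC level also exceeded the WT level of 86.0 ± 1.39 CPM. The summed CPM of the 28 genes was therefore not lower in KO_PAPC, at 523.6 to 533.5 against 489.4 to 492.4 in KO.

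Between KO and WT, 10 of the 25 other meiosis genes tested rose and 8 fell, shares of the same order as those of all genes (36.8% and 37.1%). None of these changes reached 2-fold. *Rec114* rose by 0.99 ± 0.057 (edgeR adjusted p = 4.97e-17) and *Ankrd31* by 0.86 ± 0.124 (edgeR adjusted p = 1.81e-07), while *Hfm1*, a helicase of crossover formation, fell by 0.90 ± 0.0893 (edgeR adjusted p = 6.76e-11). In KO_PAPC versus WT 17 of 24 fell and 4 rose, where 36.4% of all genes tested were called lower and 34.2% higher. *Terb2* was among those that fell, by 1.97 ± 0.127 (edgeR adjusted p = 7.07e-13), together with *Tex12* of the central element, by 1.89 ± 0.311 (edgeR adjusted p = 7.55e-06), and *Rnf212*, a crossover factor (log2 fold change -3.21 ± 0.401, edgeR adjusted p = 1.16e-07). The last 2 rest on few reads. *Rnf212* had 24, 26 and 37 counts in WT and 2, 2 and 4 in KO_PAPC, and *Tex12* had 41, 26 and 39 and 10, 4 and 11.

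Of 14 other piRNA genes, 12 were tested in KO_PAPC versus KO, where 8 fell, each at least 2-fold, and 4 rose. Among all genes tested, 42.2% were called lower, 18.4% by at least 2-fold, and 39.6% were called higher. *Gpat2*, a mitochondrial partner of PIWIL2, fell from 64.7 to 7.71 CPM (log2 fold change -2.90 ± 0.0534, edgeR adjusted p = 1.75e-33). *Rnf17*, a Tudor protein, fell by 2.29 ± 0.0475 (edgeR adjusted p = 7.48e-32), and *Gtsf1*, a PIWI cofactor, by 2.13 ± 0.18 (edgeR adjusted p = 2.95e-13). *Tdrkh*, a Tudor protein on mitochondria, named for this contrast after its value was seen, rose by 1.01 ± 0.0888 (edgeR adjusted p = 7.89e-13). Between KO and WT 7 rose and 5 fell of 13 tested, where 36.8% of all genes tested were called higher and 37.1% lower. *Piwil1*, a PIWI protein of later male germ cells, was up by 1.69 ± 0.17 (edgeR adjusted p = 8.7e-11) and *Tdrkh* down by -0.79 ± 0.0841 (edgeR adjusted p = 3.39e-10). In KO_PAPC versus WT 8 of 12 fell and 1 rose, or 10 and 0 when scaled by library totals. With TMM factors 36.4% of all genes tested were called lower and 34.2% higher.

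Primordial germ cell markers changed in both contrasts. Between KO and WT 7 of 8 rose and 1 fell, where 36.8% of all genes tested were called higher and 37.1% lower. The 1 that fell was *Dnd1*, named after its value was seen, with a log2 fold change of -0.15. It had 17.2 ± 0.433 CPM for WT, 15.5 ± 0.435 for KO and 15.2 ± 0.767 for KO_PAPC. *Tfap2c*, a transcription factor of primordial germ cells, had 1511, 1520 and 1488 counts in WT, 8329, 8349 and 8461 in KO and 739, 750 and 789 in KO_PAPC, with log2 fold changes of 2.45 ± 0.0284 between KO and WT (edgeR adjusted p = 1.85e-36) and -3.25 ± 0.0345 between KO_PAPC and KO (edgeR adjusted p = 1.04e-40). *Nanos3*, an RNA-binding protein of these cells, rose by 2.40 ± 0.105 in KO (edgeR adjusted p = 2.57e-20), and *Dppa3* by 1.65 ± 0.0564 (edgeR adjusted p = 2.27e-23). In KO_PAPC versus KO 7 of 8 fell and 1, again *Dnd1*, rose (log2 fold change 0.14), or 7 and 0 when scaled by library totals. With TMM factors 42.2% of all genes tested were called lower and 39.6% higher. *Dppa3* was down by -3.17 ± 0.075 (edgeR adjusted p = 4.64e-30) and *Prdm14* by -2.42 ± 0.0497 (edgeR adjusted p = 5.39e-32). The summed level of the 8 markers was 340.5 to 346.0 CPM for WT, 729.9 to 745.2 for KO and 202.1 to 209.6 for KO_PAPC, and none was at the detection floor. All of them but *Nanos3*, *Dnd1* and *Prdm1* are also known to be high in pluripotent cells.

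Genes of oocytes and spermatogonia were partly absent. Of 18 such genes, 11 were tested in KO versus WT, where 9 rose and 1 fell. Among all genes tested, 36.8% were called higher and 37.1% lower. The 1 that fell was *Zbtb16*, named after its value was seen. It went from 1.96 ± 0.282 to 1.37 ± 0.197 CPM (log2 fold change -0.51 ± 0.178, edgeR adjusted p = 0.0103). *Gfra1*, a receptor of spermatogonial stem cells, rose from 1.42 to 7.96 CPM (log2 fold change 2.48 ± 0.123, edgeR adjusted p = 7.74e-19). *Taf7l*, a germ cell transcription factor subunit, rose by 0.90 ± 0.0675 in KO (edgeR adjusted p = 6.78e-14) and fell by 3.85 ± 0.103 from KO to KO_PAPC (edgeR adjusted p = 2.43e-28). In KO_PAPC versus KO 9 of 11 fell and 2 were not called, where 42.2% of all genes tested were called lower and 39.6% higher. In KO_PAPC versus WT, 3 of 9 fell and 1 rose, or 6 and 1 when scaled by library totals. With TMM factors 36.4% of all genes tested were called lower and 34.2% higher.

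Markers of other cell states were compared too, and their directions differed. The summed level of 8 genes of the 2-cell-like state, a transient state of ESC cultures, was 5.57 to 5.86 CPM for WT, 90.9 to 92.5 for KO and 0.144 to 0.432 for KO_PAPC, where 7 of the 8 were at the detection floor. All 8 rose in KO against WT and fell in KO_PAPC against KO. Among all genes tested, 36.8% were called higher in the first contrast and 42.2% lower in the second. *Zscan4f*, for example, rose by 4.203 ± 0.143 in KO (edgeR adjusted p = 2.11e-23), and had 14, 17 and 15 counts in WT, 312, 277 and 282 in KO and 0, 1 and 2 in KO_PAPC. Most of these genes belong to families of near-identical copies, so the counts of this list are uncertain. Words shared with other genes were not measured for this list. The pluripotency markers did not move together. *Nanog*, *Zfp42* and *Sox2* rose in KO by 1.02 ± 0.0214 (edgeR adjusted p = 2.18e-29), 1.01 ± 0.0222 (edgeR adjusted p = 6.68e-29) and 0.56 ± 0.0201 (edgeR adjusted p = 9.9e-23), and each fell from KO to KO_PAPC. *Pou5f1* was not called in KO (0.02 ± 0.0216, edgeR adjusted p = 0.304) and rose by 0.44 ± 0.0245 from KO to KO_PAPC (edgeR adjusted p = 1.33e-18). Of the 5 germ layer markers, *T* and *Pax6* fell in KO and rose from KO to KO_PAPC, by 5.87 ± 0.154 (edgeR adjusted p = 1.21e-28) and 2.92 ± 0.0636 (edgeR adjusted p = 3.47e-31). *Gata6* and *Sox17* fell in both steps, the second by 2.44 ± 0.109 (edgeR adjusted p = 1.92e-21) and 2.95 ± 0.175 (edgeR adjusted p = 1.18e-17). *Afp* rose in KO and fell by 3.09 ± 0.124 from KO to KO_PAPC (edgeR adjusted p = 6.73e-23). The summed level of 6 markers of gonadal somatic cells was 19.95 to 20.99 CPM in WT, 12.81 to 13.52 in KO and 11.99 to 12.46 in KO_PAPC. *Inha* fell in KO by 2.10 ± 0.188 (edgeR adjusted p = 5.11e-12) and *Star* by 0.53 ± 0.0646 (edgeR adjusted p = 7.65e-09). *Nr5a1*, which defines these cells, had at most 1 count per library in WT and KO_PAPC and 4 to 8 in KO. The part of these states in the levels of the 36 genes was not tested.

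**Figure D5:**
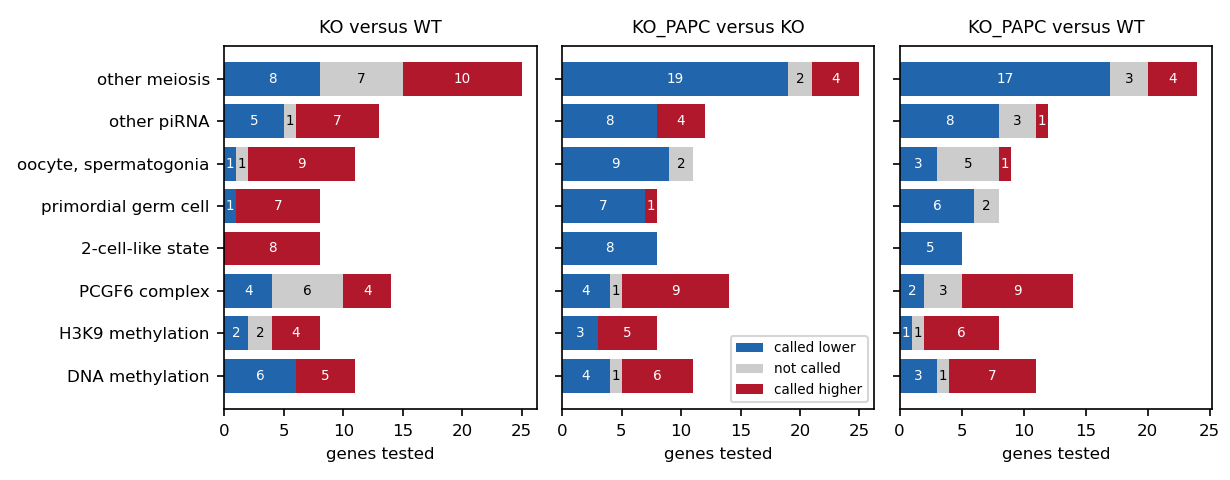
Number of genes called lower (blue), not called (grey) and called higher (red) by edgeR in 8 lists of genes outside the 36, in 3 contrasts; bar length is the number of genes tested. In KO_PAPC versus KO 19 of 25 other meiosis genes and 7 of 8 primordial germ cell markers were called lower, as were 42.2% of all genes tested.

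Genes of the machinery that keeps germline promoters silent, with *Tet1*, *Tet2* and *Tet3*, which act against DNA methylation, were tested as well. Of 14 genes of the PCGF6 complex, 9 rose and 4 fell in KO_PAPC versus KO, each by less than 2-fold. Here 81.8% of all genes tested were called, 39.6% higher and 42.2% lower. The largest were *Tfdp1*, a dimer partner of E2F proteins (log2 fold change 0.90 ± 0.0292, edgeR adjusted p = 9.68e-26), and *Ring1*, a ubiquitin ligase (0.88 ± 0.0672, edgeR adjusted p = 1.83e-14). *E2f6* itself, named after its value was seen, was not called in any contrast with TMM factors but was called lower in both KO_PAPC contrasts when scaled by library totals (-0.1287 against KO and -0.123 against WT), with 40.6 ± 0.705 CPM for WT, 40.7 ± 1.33 for KO and 37.2 ± 1.28 for KO_PAPC. Scaling by library totals changed the counts for this list to 7 higher and 5 lower. In KO versus WT 4 rose and 4 fell, led by *Ring1* (-0.85 ± 0.0643, edgeR adjusted p = 7.89e-14). In KO_PAPC versus WT 9 rose and 2 fell, or 6 and 5 when scaled by library totals. With TMM factors 34.2% of all genes tested were called higher and 36.4% lower.

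Of 8 genes, namely 7 for methylation of histone H3 lysine 9 and *Kdm5c*, a demethylase of histone H3 lysine 4, 5 rose and 3, *Kdm5c* among them, fell in KO_PAPC versus KO. In that contrast 39.6% of all genes tested were called higher and 42.2% lower. *Ehmt2*, a methyltransferase, fell in KO by 0.76 ± 0.0293 against WT (edgeR adjusted p = 7.95e-22) and rose by 1.04 ± 0.0294 from KO to KO_PAPC (edgeR adjusted p = 1.13e-27). In KO versus WT 4 of the 8, again with *Kdm5c*, rose and 2 fell, and in KO_PAPC versus WT 6 rose and 1 fell, or 4 and 3 when scaled by library totals. The 11 DNA methylation genes include *Tet1*, *Tet2* and *Tet3*. Of the 11, 6 rose and 4 fell in KO_PAPC versus KO, beside the same shares of all genes. Those that fell, named for this contrast after their values were seen, were *Dnmt3l*, *Tet1*, *Tet2* and *Zbtb24*. *Dnmt3l* went from 109.7 ± 1.65 CPM in KO to 77.5 ± 2.39 in KO_PAPC, and *Tet1* from 373.2 ± 7.5 to 292.0 ± 12.3. *Tet2* went from 143.8 ± 0.883 to 83.0 ± 1.75 CPM, and *Zbtb24* from 36.2 ± 0.243 to 16.4 ± 0.905. The de novo methyltransferase gene *Dnmt3b* had 218.3 ± 3.29 CPM for WT, 149.9 ± 1.38 for KO and 619.3 ± 10.1 for KO_PAPC, with a log2 difference of 2.21 ± 0.0261 from KO (edgeR adjusted p = 2.12e-39). *Dnmt3a* rose by 1.63 ± 0.0252 (edgeR adjusted p = 7.17e-36), and *Uhrf1*, which brings maintenance methylation to replicated DNA, by 1.003 ± 0.0253 (edgeR adjusted p = 3.31e-29). In KO versus WT 5 of the 11 rose and 6 fell, with *Dnmt3a* down by -0.67 ± 0.0235 (edgeR adjusted p = 4.07e-23). *Tet2* rose by 0.72 ± 0.0284 (edgeR adjusted p = 1.23e-21) and *Zbtb24* by 0.67 ± 0.0507 (edgeR adjusted p = 7.37e-14). In KO_PAPC versus WT 7 rose and 3 fell, or 5 and 3 when scaled by library totals. Among all genes tested, 36.8% were called higher and 37.1% lower in KO versus WT, and 34.2% and 36.4% in KO_PAPC versus WT. DNA methylation itself was not measured in these libraries, and its part in the levels of the germline genes was not tested.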

How the data were processed

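RNA sequencing libraries of mouse EBs (3 WT, 3 KO, 3 KO_PAPC) were grouped by their titles. The study describes the KO and WT libraries as biological replicates and the KO and KO_PAPC libraries as independent pools of EBs, and the KO and WT cells were 1 clone and 1 parental line, so p-values measure the spread between such pools. The deposited counts are whole numbers of reads per Ensembl gene, not normalized. The submitters' processing notes name bcl2fastq 2.20.0.422, STAR 2.7.2b and featureCounts 1.6.5 on GRCm38. The study's methods describe another aligner for the KO and WT analysis. TruSeq RNA v2 libraries carry no strand, so overlapping antisense genes cannot be separated. Symbols came from GENCODE M21, and 241 of 55471 IDs had no match. The number of unused sample columns was 0.

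Each contrast was fitted on its own 6 libraries with edgeR 4.0.16 in R 4.3.3 (TMM, filterByExpr, quasi-likelihood test, Benjamini-Hochberg over all genes tested, called at an adjusted p under 0.05), after a test on simulated data. CPM used library totals, and TPM the GENCODE exon length. Values are mean ± SD over 3 libraries, and log2 fold changes carry the SE. The genes and lists were chosen with earlier results of these data known. All 36 genes were named. From each other list up to 3 called genes per contrast with the largest log2 fold change and a mean of at least 1 CPM were eligible. *Iho1* and *Six6os1* were not matched. Promoters came from RefSeq (GRCm38.p6). Alternatives were DESeq2 1.42.0, 2 other scalings, 2 other filters, a joint fit, a replicate block and each library left out.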

Additional observations from a re-analysis of the deposited data

How the results depend on the processing

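Depth and near-identical copies limit *Figla*, *Spo11*, *Tdrd6* and the 2-cell-like genes. Of 1287 values of the 33 germline genes under the alternatives, 1220 had an unchanged sign and call, 44 were no longer called, 4 became called and 19 changed sign, and of 1417 values of other named genes 1408 were unchanged, 2 were no longer called and 7 changed sign. Changes of sign concerned differences near 0. Without single libraries the log2 fold change ranged from -0.173 to 0.2937 for *Tdrd9*, from -0.09533 to 0.02447 for *Sycp3* and from -0.07315 to 0.04394 for *Slc25a31* in KO versus WT, from -0.08554 to 0.08668 for *Sycp3* in KO_PAPC versus KO, and from -0.07466 to 0.08669 for *Tdrd1* and -0.1327 to 0.04006 for *Sycp3* in KO_PAPC versus WT. It was -0.00902 for *Slc25a31* (KO versus WT) and 0.0232 for *Sycp3* (KO_PAPC versus KO) with no filter beyond 1 count, 0.003038 for *Sycp3* in the joint fit and 0.004307 in DESeq2, and 0.001388 for *Tdrd1* in KO_PAPC versus WT in DESeq2. *E2f6* in KO versus WT was -0.008428 with no filter beyond 1 count and ranged from -0.01305 to 0.03317 without single libraries. Scaled by library totals, *E2f6* was -0.1287 in KO_PAPC versus KO and -0.123 in KO_PAPC versus WT, and *Sox2* was -0.0917 in KO_PAPC versus WT. The cause was not tested. The order of the 3 groups on the TMM scale was added after seeing the data.

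The median of the germline genes was -1.51 in KO_PAPC versus KO and -1.07 in KO_PAPC versus WT when scaled by library totals, and ranged from -1.38 to -1.29 in KO_PAPC versus KO without single libraries. In KO_PAPC versus WT, 7 oocyte and spermatogonial genes were called with library totals, in place of 4, and 3 genes of the 2-cell-like state with a filter at a mean of 10 counts, in place of 5, since fewer genes were tested.

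Calls lost when 1 library was left out were those of *Dazl* (without KO replicate 1, -0.08), *Stk31*, *Piwil2*, *Mov10l1* and *Syce3* in KO versus WT, *Tdrd9* (without KO replicate 3, -0.60) in KO_PAPC versus KO, and *Tdrd9* (without WT replicate 3, -0.49), *Tdrd12*, *Ddx4* and *Tex101* in KO_PAPC versus WT. Same-numbered libraries did not deviate together (correlations of -0.08 to 0.11), so the numbers do not pair them. With the replicate block 25 germline genes were called in KO versus WT, against 26 without it, where the call of *Mov10l1* was lost (-0.149). The block changed no other call.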
